A study of Homo sapiens with 12 samples.

Results

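The 10 genes described here, FOXP3, IL2RA, CTLA4, IKZF2, IKZF4, TNFRSF18, TNFRSF4, ENTPD1, NT5E and LRRC32, are commonly used to describe regulatory T cells (Treg), and they were measured in tumour cells. They were chosen by name, and each matched 1 row of the 60666 genes in the raw count table. HT1376 is a cell line from a human bladder carcinoma. HT1376 CT went through CRISPR/Cas9 with a guide against luciferase and is called WT in the sample labels, and HT1376 FOXP3 KO was cut in exon 2 of FOXP3. Both lines were grown from single cells, so each stands for 1 clone, and a difference between the lines cannot be told apart from a difference between clones. Each line was left untreated or given 100 ng/mL IFNγ for 48 hours, with 3 RNA-seq libraries per group, numbered 11, 12 and 13. The sources call these triplicate samples and do not say that they came from separate cultures, so the p-values measure the spread between these libraries, which may be technical.

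A Treg restrains other T cells. FOXP3 is the transcription factor that defines it, and the Ikaros family factors IKZF2 (Helios) and IKZF4 (Eos) act beside FOXP3 in the nucleus. At the surface, IL2RA (CD25) captures interleukin-2, CTLA4 competes with CD28 for CD80 and CD86, TNFRSF18 (GITR) and TNFRSF4 (OX40) are costimulatory receptors, and LRRC32 (GARP) holds latent TGF-β. ENTPD1 (CD39) and NT5E (CD73) are ectoenzymes that act in sequence: CD39 removes phosphates from extracellular ATP and ADP, and CD73 turns the AMP that is left into adenosine, which dampens T cells through its receptors. Several of these genes are used by other cells too, and CD73 in particular is made by many epithelial cells.

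The 10 genes fell into a detected and an undetected set. NT5E, IKZF2, IKZF4 and ENTPD1 were above the count floor, taken as 3 counts, in all 12 libraries. FOXP3, TNFRSF4, TNFRSF18, IL2RA and CTLA4 were at the floor in all 12 libraries. LRRC32 was above it in 1 library. Across the whole table, 31530 of the 60666 genes were at the floor in all 12 libraries and 22460 had no count at all. The libraries held 4490684 to 39270042 counts, so that 3 counts correspond to 0.0764 to 0.668 CPM (counts scaled to a common library size), and such limits cover counting error only.

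**Figure D1:**
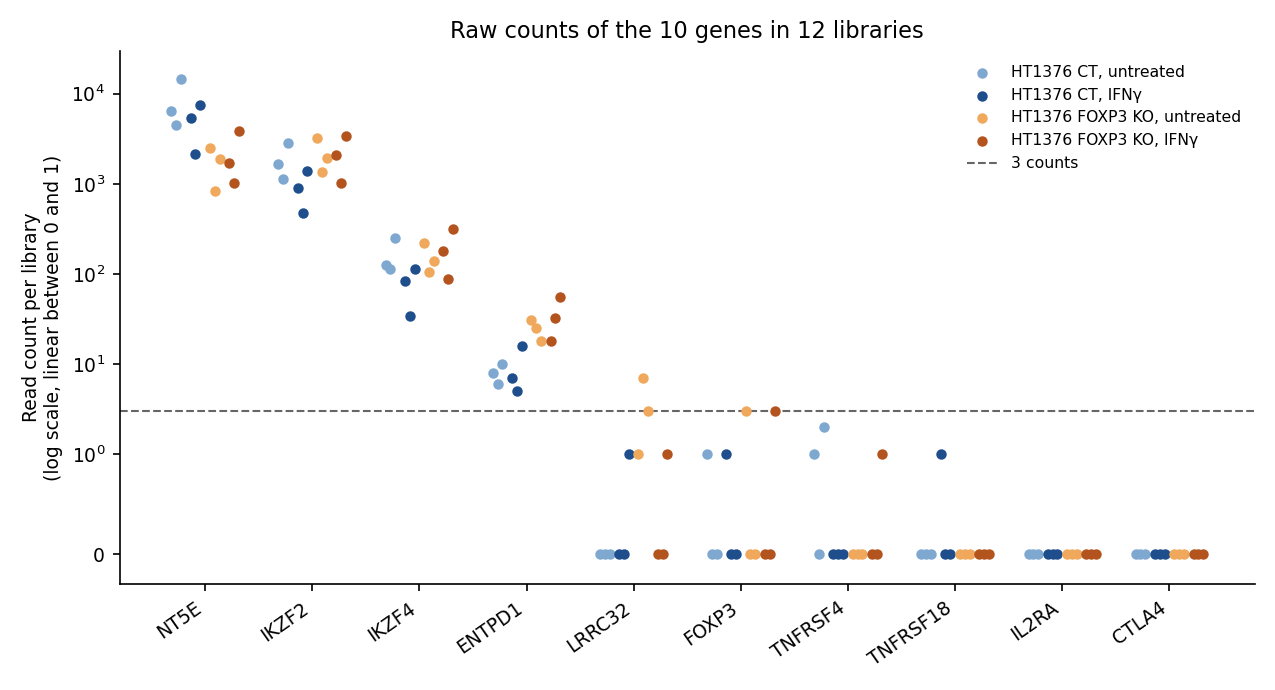
Raw read count (vertical axis, log scale, linear between 0 and 1) of each of the 10 genes in each of the 12 libraries, coloured by group. The dashed line marks 3 counts. NT5E, IKZF2, IKZF4 and ENTPD1 lie above the line in every library, LRRC32 in 1 library with 7 counts, and the other 5 genes in none.

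Levels between genes were compared per length, as read counts scaled by exon length and library size (RPKM). NT5E had a median of 53.3 RPKM over the 12 libraries, with a range of 16.2 to 116. IKZF2 followed with a median of 8.96 RPKM (6.11 to 11.3), IKZF4 with 1.24 RPKM (0.935 to 1.76) and ENTPD1 with 0.0764 RPKM (0.0184 to 0.238). The ranges of neighbours in this order did not overlap. By total count, NT5E stood above 98.2% of the 38206 genes with at least 1 count, IKZF2 above 94.1%, IKZF4 above 73.2% and ENTPD1 above 60.1%. Within the route to adenosine, the CD73 gene was thus among the abundant transcripts and the CD39 gene held 5 to 55 counts per library.

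The promoters of the detected and undetected genes are shown to let their base composition be compared. The RefSeq table of 300-base windows around annotated start sites (250 bases before to 50 after, GRCh38.p14) matched 8 of the 10 genes with 15 windows. TNFRSF4 and LRRC32 had no entry. For each gene the window richest in CpG was taken, and the 30 bases just before its start site are printed, 5′ to 3′ on the strand of the gene, with CpG in capitals.
NT5E, chr6:85450053-85450082, plus strand: acCGagcccCGgccctagctgctCGcccct
ENTPD1, chr10:95694155-95694184, plus strand: agaagcccttgCGccttccttcCGctaggt
IKZF4, chr12:56007474-56007503, plus strand: tgatggggggggatatttgggggggcaagt
IKZF2, chr2:213150438-213150467, minus strand: aggaggaggaggggggtgttcttctctctc
TNFRSF18, chr1:1206593-1206622, minus strand: aggaCGgggaCGgggCGtgtccaactggct
FOXP3, chrX:49264711-49264740, minus strand: ataaaagcaaagttgtttttgataCGtgac
IL2RA, chr10:6062368-6062397, minus strand: tatttgagatgagagaagagagtgctaggc
CTLA4, chr2:203867741-203867770, plus strand: cttcctttctCGtaaaaccaaaacaaaaag

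The whole window of NT5E held 37 CpG and 75% G or C, against medians of 14 CpG and 58.7% over all 35116 windows of that length. The windows of the undetected IL2RA and CTLA4 held 4 CpG each. The window taken for ENTPD1, with 29 CpG, lies before the gene as annotated for counting (chromosome 10, 95711779 to 95877266). The other windows listed for ENTPD1 held 2 to 8 CpG. The order of CpG did not follow the order of the levels throughout. TNFRSF18, with 1 count in all, had 23 CpG, and IKZF2, with 21354, had 7.

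The windows were searched on both strands for a forkhead core (TAAACA), a longer forkhead site (TGTTTAC), which contains the core as read on the other strand, a GAS element (TTCNNNGAA) and an ISRE core. IKZF2 was the gene with a match. Its window at the upstream start site held the forkhead core 157 bases before the start, shown with the core in capitals.
IKZF2, chr2:213152596-213152625, minus strand: gttctttccaaaTAAACAagctgtggttga

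The second IKZF2 window held the core on the opposite strand, 12 bases after its start site. The core occurs in 12.3% of all windows, the longer site in 3.42%, the GAS element in 7.66% and the ISRE core in 3.57%. A match describes letters in this window and is no evidence of binding.

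FOXP3 (ENSG00000049768, chromosome X, 49250438 to 49264800, minus strand) was listed with 8 counts in the 12 libraries together. The HT1376 CT libraries held 1 count in untreated replicate 11 and 1 in IFNγ replicate 11. The HT1376 FOXP3 KO libraries held 3 counts in untreated replicate 11 and 3 in IFNγ replicate 13, and the other 8 libraries held none. At this depth a loss of the FOXP3 transcript was not detectable, and the counts check the line labels in neither direction. Of the exon bases of FOXP3, 8.52% are shared with exons of other counted genes on either strand.

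The closest relatives and nuclear partners of FOXP3 gave another picture. In a list of 11 such genes, 2 were higher and 4 lower in untreated HT1376 FOXP3 KO than in untreated HT1376 CT by the quasi-likelihood test of edgeR, of 10 tested, with a median log2 fold change of -0.36 beside -0.02 over all 25320 genes tested. In that comparison 32.1% of all genes tested were called at an adjusted p under 0.05. FOXP1, a forkhead paralog, rose from 40.7 ± 7.37 CPM in HT1376 CT to 89.1 ± 28.2 CPM in HT1376 FOXP3 KO (mean ± SD, n = 3), a log2 fold change of 1.15 (SE 0.218, adjusted p = 0.00217). The paralog FOXP4 went the other way, called lower at 16.9 CPM against 25.5 CPM in HT1376 CT (adjusted p = 0.0167). HDAC9, a histone deacetylase that acts with FOXP3 in Treg, fell from 151 ± 36.4 CPM to 0.900 ± 0.183 CPM, and NFATC2, a transcription factor downstream of calcineurin, from 38.5 CPM to 4.53 CPM. HDAC9 was also the member of this list called with IFNγ in HT1376 CT, where it rose to 449 ± 87.2 CPM (adjusted p = 0.000276). That was 1 of 10 tested, beside 5.35% of all genes called in that comparison. In HT1376 FOXP3 KO, HDAC9 was at 1.73 ± 0.282 CPM with IFNγ. Its log2 fold change of 0.95 there was not called (adjusted p = 0.812).

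IKZF2 (ENSG00000030419, chromosome 2, 212999691 to 213152427, minus strand) was higher in the knockout clone without treatment. The 3 untreated HT1376 CT libraries, in the order of replicates 11, 12 and 13, were at 97.2, 90.5 and 74.8 CPM, and the 3 untreated HT1376 FOXP3 KO libraries at 137, 120 and 112 CPM. These groups did not overlap. The log2 fold change was 0.51 (SE 0.132, adjusted p = 0.0127), with the knockout 1.42-fold higher in these clones.

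Under IFNγ the same contrast did not pass the threshold on adjusted p. HT1376 CT was at 86.4, 110.1 and 77.3 CPM and HT1376 FOXP3 KO at 138, 109 and 111 CPM, and the groups overlapped because replicate 12 of HT1376 CT reached the level of the knockout. That library is also the shallowest of the 12, with 477 IKZF2 counts. The log2 fold change of 0.43 (SE 0.164) had an adjusted p of 0.0701. Over the 6 fits that left out 1 library it was 0.31 to 0.60, with adjusted p of 0.0174 to 0.262. The fit without that library was the 1 that called it (0.60, adjusted p = 0.0174). IFNγ itself gave log2 fold changes of 0.08 (SE 0.154) in HT1376 CT and -0.03 (SE 0.134) in HT1376 FOXP3 KO for IKZF2, with adjusted p of 0.854 and 0.999 in edgeR.

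IKZF4 (ENSG00000123411, chromosome 12, 56007659 to 56038435, plus strand) was detected at a lower level than IKZF2. Untreated HT1376 CT had 7.38, 8.90 and 6.64 CPM, and untreated HT1376 FOXP3 KO had 9.47, 9.45 and 7.95 CPM, in overlapping ranges. The log2 fold change was 0.25 (SE 0.205, adjusted p = 0.384). Under IFNγ the lines were at 8.03, 7.85 and 6.37 CPM and at 12.0, 9.29 and 10.1 CPM. These groups did not overlap, and the log2 fold change of 0.55 (SE 0.226) did not pass the edgeR test (adjusted p = 0.0906). With IFNγ against untreated cells, IKZF4 differed by -0.02 (SE 0.226) in HT1376 CT and by 0.24 (SE 0.187) in HT1376 FOXP3 KO on the log2 scale, neither of them called.

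The other Ikaros genes were read beside them. IKZF1 (Ikaros), which lymphocytes depend on, was at the floor in every library, with at most 3 counts. IKZF3 (Aiolos) had 1 to 59 counts per library. IKZF5 (Pegasus), which is broadly expressed, was at 27.9 ± 1.99 CPM in untreated HT1376 CT and 24.4 ± 1.41 CPM in untreated HT1376 FOXP3 KO (adjusted p = 0.318 in edgeR), and its difference between the lines under IFNγ had an adjusted p of 0.0920.

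**Figure D2:**
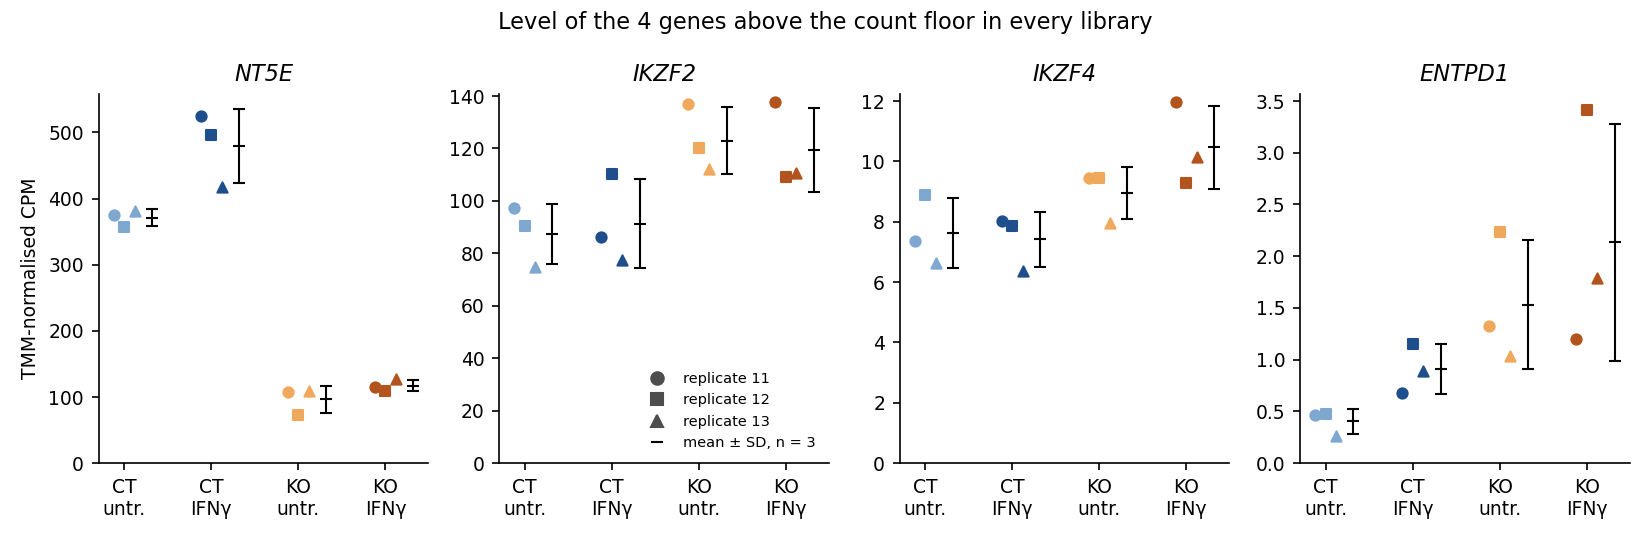
TMM-normalised CPM (vertical axes, from 0) of NT5E, IKZF2, IKZF4 and ENTPD1 in each library of the 4 groups, with marker shapes for replicates 11, 12 and 13 and bars for the mean ± SD of 3 libraries. NT5E lies at 357 to 525 CPM in HT1376 CT and at 73.5 to 127 CPM in HT1376 FOXP3 KO.

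IL2RA (ENSG00000134460, chromosome 10, 6010689 to 6062370, minus strand) had 0 counts in all 12 libraries, which allows up to 0.0193 to 0.169 RPKM depending on the library. The other chains of its receptor were low. IL2RB, the chain shared with interleukin-15, was at 1.33 ± 0.267 CPM in untreated HT1376 CT and 0.443 ± 0.183 CPM in untreated HT1376 FOXP3 KO, and the common γ chain IL2RG was between 0 and 44 counts per library. The interleukin-2 gene IL2 had no count. The related cytokine interleukin-15 and its own α chain were present and responded to IFNγ. In HT1376 CT, IL15 rose from 4.41 ± 1.55 to 20.3 ± 2.87 CPM (log2 fold change 2.24, SE 0.254, adjusted p = 0.000214) and IL15RA, the gene next to IL2RA on chromosome 10, from 2.45 ± 0.568 to 18.9 ± 2.49 CPM (log2 fold change 2.999, SE 0.232, adjusted p = 9.1e-06).

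In HT1376 FOXP3 KO, IL15 (log2 fold change 2.43, adjusted p = 0.0392) and IL15RA (2.21, adjusted p = 0.0180) rose as well. The IL15 call in that line was lost with any of 5 of the 6 libraries left out (adjusted p from 0.0518 to 0.212) and the IL15RA call with any of 4 (0.0556 to 0.122). Of the 8 tested genes in the list of 9 around the interleukin-2 receptor, 3 were higher with IFNγ in HT1376 CT and 2 in HT1376 FOXP3 KO, and none was lower. Their median log2 fold changes were 0.75 and 0.63, beside -0.02 and -0.01 over all genes tested. In these comparisons 5.35% and 0.982% of all genes tested were called.

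CTLA4 (ENSG00000163599, chromosome 2, 203853888 to 203873965, plus strand) also had 0 counts in all 12 libraries, which allows up to 0.0328 to 0.287 RPKM. Its neighbours CD28 and ICOS, which belong to the same receptor family, were at the floor in all 12 libraries. Of the ligands, CD80 had no count. CD86 had 6 to 62 counts per library in HT1376 CT and 0 to 12 in HT1376 FOXP3 KO. Under IFNγ it was at 2.52 ± 0.958 CPM in HT1376 CT and 0.188 ± 0.177 CPM in HT1376 FOXP3 KO, a log2 fold change of -3.42 (SE 0.657, adjusted p = 0.00246). It was the 1 gene of the list of 4 ligands and relatives of CTLA4 with enough counts to be tested there.

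TNFRSF18 (ENSG00000186891, chromosome 1, 1203508 to 1206592, minus strand) and TNFRSF4 (ENSG00000186827, chromosome 1, 1211326 to 1214153, minus strand) are neighbours, 4734 bases apart. TNFRSF18 had 1 count, in HT1376 CT with IFNγ. TNFRSF4 had 4 counts, of which 3 were in untreated HT1376 CT and 1 was in HT1376 FOXP3 KO with IFNγ. SDF4, on the other side of TNFRSF4, had 359 to 3720 counts per library.

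The ligand of GITR was detected although its receptor was not. TNFSF18 was at 10.9 ± 3.45 CPM in untreated HT1376 CT and at 0.244 ± 0.201 CPM in untreated HT1376 FOXP3 KO, with 94 to 543 and 1 to 11 counts per library. The log2 fold change was -5.25 (SE 0.450, adjusted p = 8.0e-06) without treatment and -4.04 (SE 0.485, adjusted p = 9.5e-05) under IFNγ. The OX40 ligand TNFSF4 was at 2.67 ± 0.173 and 1.20 ± 0.824 CPM in the untreated lines, and the difference was not called (adjusted p = 0.0667). In the list of 6 ligands and TRAF adaptors, all tested, 4 were lower in untreated HT1376 FOXP3 KO and 5 under IFNγ, and none was higher, with medians of -1.12 and -0.87 on the log2 scale. In those comparisons 32.1% and 28.9% of all genes tested were called, with medians over all genes of -0.02 and 0.02.

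LRRC32 (ENSG00000137507, chromosome 11, 76657524 to 76670747, minus strand) had 13 counts in all. The untreated HT1376 FOXP3 KO libraries held 1, 7 and 3, untreated HT1376 CT held none, and the groups with IFNγ held 1 count each. Replicates 11 and 13 of untreated HT1376 FOXP3 KO were themselves at the floor, so the library with 7 counts carries the contrast, and no fold change is given. LRRC32 passed the minimum of 10 counts in this comparison through the knockout libraries alone, and its test is no support for a difference between the lines. The edgeR adjusted p was 0.0519, and it was 0.0235 to 0.142 over the 12 alternatives that gave one, 5 of which called it. DESeq2 was among these (adjusted p = 0.0415, with 33.7% of all genes tested called). Without replicate 12 or without replicate 13 of untreated HT1376 FOXP3 KO, the gene fell under the minimum and was not tested.

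What GARP holds and what frees it was expressed in both lines. TGFB1 was at 4.06 ± 1.54 CPM in untreated HT1376 CT and 17.02 ± 6.19 CPM in untreated HT1376 FOXP3 KO, a log2 fold change of 2.07 (SE 0.334, adjusted p = 0.000741), and under IFNγ the log2 fold change was 2.53 (SE 0.402, adjusted p = 0.000699). FURIN, the protease that cuts pro-TGF-β, fell from 131 ± 20.8 to 29 ± 8.32 CPM, and ITGB8, an integrin chain that takes part in activating latent TGF-β, from 170 ± 14.0 to 72.7 ± 20.9 CPM. In the list of 12 genes, 11 of them tested, 2 were higher and 5 lower in untreated HT1376 FOXP3 KO, where 32.1% of all genes tested were called, and 4 were higher and 2 lower under IFNγ, where 28.9% were. The median log2 fold changes of the list were -0.44 and 0.04, beside -0.02 and 0.02 over all genes. NRROS, a relative of GARP in macrophages, had at most 3 counts in a library.

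ENTPD1 (ENSG00000138185, chromosome 10, 95711779 to 95877266, plus strand) was the lowest of the 4 detected genes. Untreated HT1376 CT had 8, 6 and 10 counts (0.468, 0.477 and 0.264 CPM) and untreated HT1376 FOXP3 KO had 31, 25 and 18 counts (1.33, 2.23 and 1.04 CPM), without overlap. The log2 fold change was 1.97 (SE 0.522, adjusted p = 0.0144), which is 3.92-fold higher in the knockout clone. Without untreated HT1376 CT replicate 13 the call was lost (log2 fold change 1.70, adjusted p = 0.0666).

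Under IFNγ, ENTPD1 was at 0.678, 1.15 and 0.894 CPM in HT1376 CT and at 1.20, 3.42 and 1.79 CPM in HT1376 FOXP3 KO. These groups did not overlap either, and the log2 fold change of 1.29 (SE 0.537) did not pass (adjusted p = 0.0971). All 3 HT1376 CT libraries with IFNγ were above the untreated ones, with a log2 fold change of 1.19 (SE 0.633, adjusted p = 0.371). In HT1376 FOXP3 KO the treated and untreated ranges overlapped, and the log2 fold change was 0.48 (SE 0.482, adjusted p = 0.999).

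ENTPD1 counts carry a second limit. Of its exon bases, 41.0% are shared with exons of other counted genes on either strand, and 3.49% with genes on its own strand. The antisense gene ENTPD1-AS1 had 129 to 1372 counts per library, against 5 to 55 for ENTPD1. The sources do not say whether strand was used in counting, and without strand the reads of the pair cannot be told apart. ENTPD1-AS1 was at 40.2 ± 5.47 CPM in untreated HT1376 CT and 42.6 ± 7.68 CPM in untreated HT1376 FOXP3 KO (log2 fold change 0.10, SE 0.155, adjusted p = 0.659).

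NT5E (ENSG00000135318, chromosome 6, 85449584 to 85495791, plus strand) had the smallest adjusted p of the 10 genes in both comparisons of the lines. Untreated HT1376 CT had 375, 357 and 381 CPM, and untreated HT1376 FOXP3 KO had 107, 73.5 and 109 CPM. Under IFNγ the values were 525, 496 and 417 CPM against 115, 109.6 and 127 CPM. Each HT1376 CT library was above each HT1376 FOXP3 KO library. In bulk RNA, fewer cells with the transcript and less transcript per cell cannot be told apart.

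The log2 fold change of NT5E was -1.92 (SE 0.148, adjusted p = 3.6e-06) without treatment and -1.99 (SE 0.126, adjusted p = 8.4e-07) under IFNγ, which is 3.797-fold and 3.98-fold lower in the knockout clone. It was called in all 12 fits that left out 1 library, with values from -2.07 to -1.74. None of its exon bases is shared with another counted gene.

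IFNγ went with a smaller step in NT5E within each line. In HT1376 CT the treated library was above the untreated library of the same number in 3 of 3 pairs, by 1.40, 1.39 and 1.10 times. In HT1376 FOXP3 KO it was above in 3 of 3 pairs, by 1.08, 1.49 and 1.16 times. Without the pairing, the log2 fold changes were 0.40 (SE 0.107, adjusted p = 0.0576) in HT1376 CT and 0.30 (SE 0.142, adjusted p = 0.981) in HT1376 FOXP3 KO, and neither passed. With the replicate number as a block they were 0.39 (adjusted p = 3.1e-08) and 0.30 (adjusted p = 0.000408), and both passed. edgeR estimates the spread with the help of all genes, so these p-values do not measure the spread of the 3 NT5E pairs alone. The log2 ratios of the pairs ran from 0.131 to 0.487 in HT1376 CT and from 0.105 to 0.577 in HT1376 FOXP3 KO. When the bias-adjusted deviance was added to the block, the adjusted p were 0.00337 and 0.0433. The block also raised the share of all genes called, to 18.6% in HT1376 CT and 5.53% in HT1376 FOXP3 KO, or 16.8% and 4.26% with the bias-adjusted deviance.

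**Figure D3:**
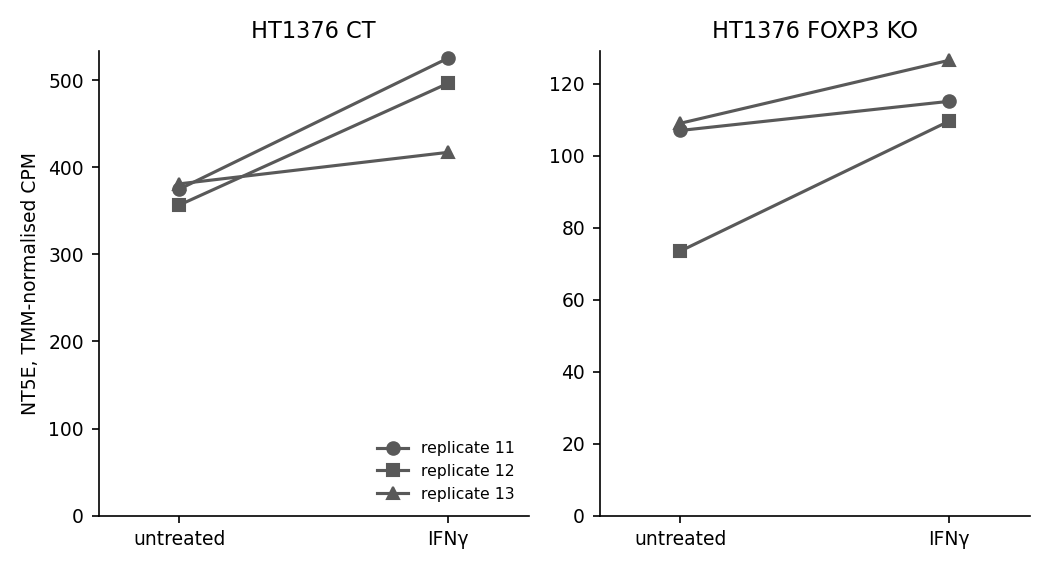
TMM-normalised CPM of NT5E (vertical axes, from 0, on different scales) in untreated and IFNγ-treated libraries of HT1376 CT (left) and HT1376 FOXP3 KO (right), with a line joining the libraries of the same replicate number. The 3 lines rise in each panel, from 357 to 381 CPM up to 417 to 525 CPM on the left and from 73.5 to 109 CPM up to 109.6 to 127 CPM on the right.

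The enzymes and receptors around ENTPD1 and NT5E moved in different directions. In the list of 14 genes of adenosine handling, 12 were tested without treatment, and 1 was higher and 5 were lower in HT1376 FOXP3 KO, with a median log2 fold change of -0.26 beside -0.02 over all genes, of which 32.1% were called. Under IFNγ, 1 was higher and 3 were lower of 11 tested, with a median of -0.27 beside 0.02 over all genes, and the share called was near the 28.9% of all genes. The gene that rose in both was ENPP1, an ectoenzyme that cuts ATP directly to AMP and also cuts the dinucleotide cGAMP. It went from 0.813 ± 0.182 CPM in untreated HT1376 CT to 52.8 ± 16.99 CPM in untreated HT1376 FOXP3 KO, a log2 fold change of 6.11 (SE 0.308, adjusted p = 1.7e-07), and its log2 fold change under IFNγ was 6.45 (SE 0.371).

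ENTPD3, a paralog of ENTPD1 that also cuts ATP and ADP, went the other way from ENTPD1. It fell from 8.87 ± 1.61 CPM in untreated HT1376 CT to 0.742 ± 0.456 CPM in untreated HT1376 FOXP3 KO (log2 fold change -3.53, SE 0.380, adjusted p = 4.2e-05). With IFNγ it rose in HT1376 CT to 34.4 ± 6.75 CPM (log2 fold change 1.99, SE 0.193, adjusted p = 6.1e-05), and it was at 1.10 ± 0.779 CPM in HT1376 FOXP3 KO. Per length, ENTPD3 was at 2.48 RPKM and ENTPD1 at 0.0281 RPKM in untreated HT1376 CT, and ENTPD2 was at 2.12 RPKM.

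**Figure D4:**
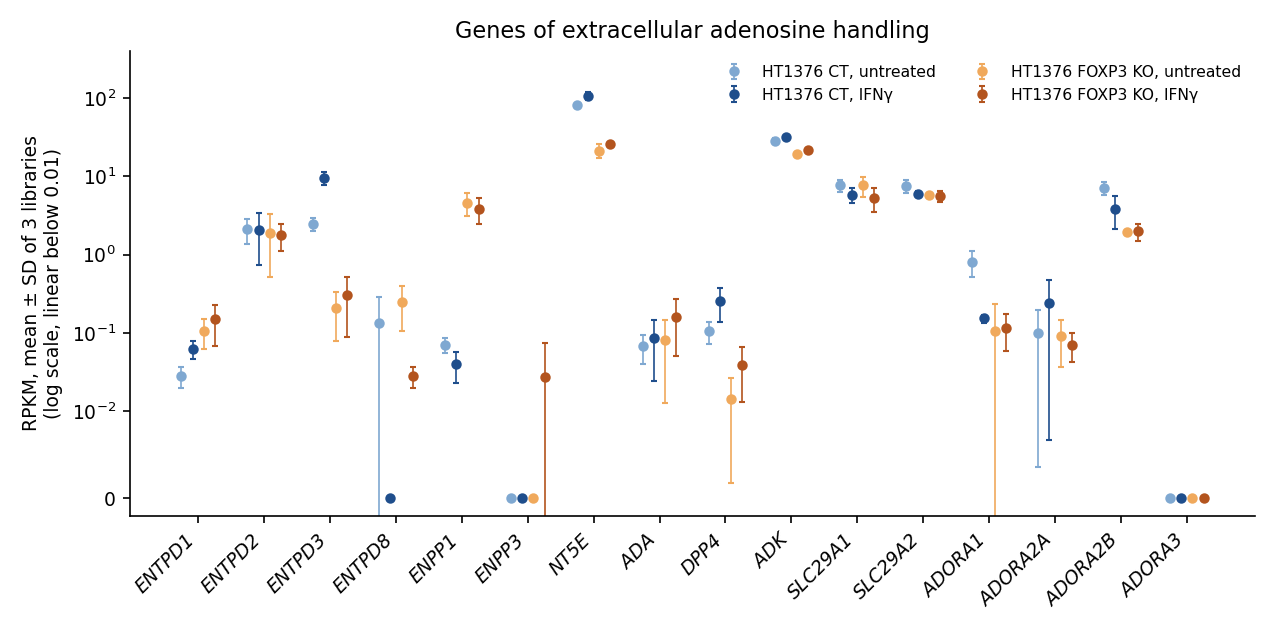
RPKM (vertical axis, log scale, linear below 0.01) of ENTPD1, NT5E and 14 other genes of extracellular adenosine handling, as mean ± SD of the 3 libraries of each group. NT5E is the highest in HT1376 CT, ENPP1 is higher in HT1376 FOXP3 KO, and ENTPD3 and NT5E are higher in HT1376 CT.

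Taking the 10 genes by comparison, 5 passed the filter on low counts for untreated HT1376 FOXP3 KO against untreated HT1376 CT, among them LRRC32 through the knockout libraries, and 3 were called, IKZF2 and ENTPD1 higher and NT5E lower. Over all genes 32.1% of the genes tested were called, 14.0% higher and 18.2% lower. Under IFNγ, 4 were tested and 1 was called, NT5E, which was lower, where 28.9% of all genes were called and 15.7% were lower. For IFNγ against untreated cells, 0 of 4 were called by edgeR in HT1376 CT, where NT5E had an unadjusted p under 0.05 and DESeq2 called it. The share called there over all genes was 5.35% by edgeR and 9.58% by DESeq2. In HT1376 FOXP3 KO 0 of 5 were called by edgeR and 0 by DESeq2, beside shares of 0.982% and 1.64% over all genes. LRRC32 had an unadjusted p under 0.05 there, and DESeq2 gave it no adjusted p. It was tested through the untreated libraries, so its p is no support for a response.

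The interaction of line and IFNγ, fitted on the 12 libraries together, asks whether the response to IFNγ differed between HT1376 CT and HT1376 FOXP3 KO. None of the 5 genes tested was called by edgeR or DESeq2 (which gave LRRC32 no adjusted p). LRRC32 had an unadjusted p under 0.05 in edgeR. It passed the minimum of counts through the untreated HT1376 FOXP3 KO libraries, which held 11 of its 13 counts. Its p is therefore no support for a different response. The difference in log2 fold change, HT1376 FOXP3 KO minus HT1376 CT, was -0.10 (SE 0.197) for NT5E, -0.11 (SE 0.214) for IKZF2, 0.26 (SE 0.285) for IKZF4 and -0.72 (SE 0.726) for ENTPD1. Over all genes 0.111% were called by edgeR and 0.981% by DESeq2.

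**Figure D5:**
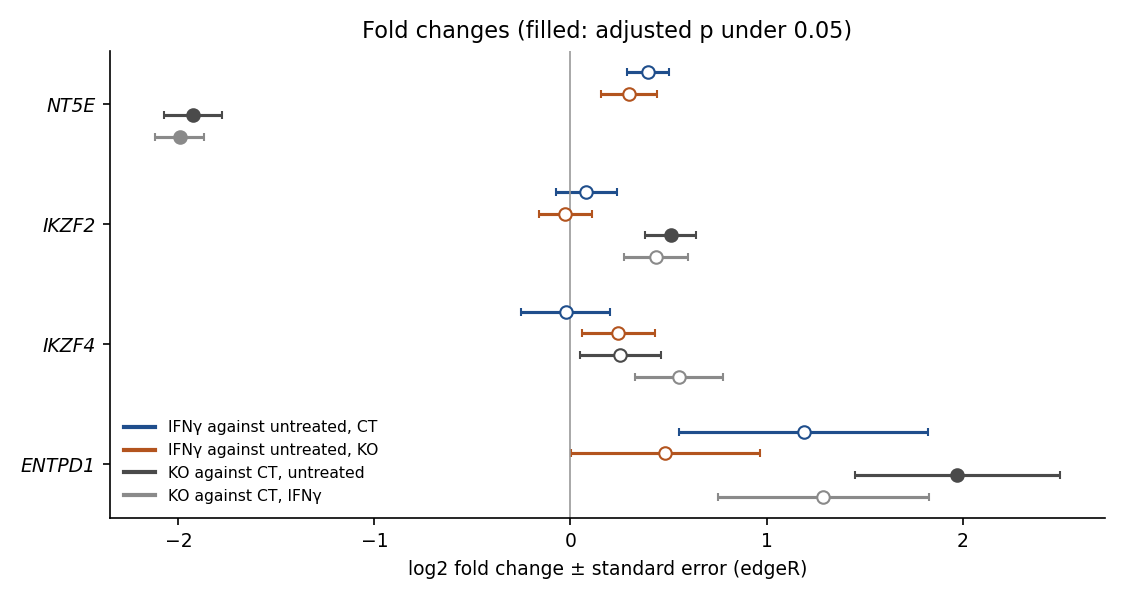
edgeR log2 fold change ± standard error (horizontal axis) of NT5E, IKZF2, IKZF4 and ENTPD1 in the 4 comparisons, with filled circles for an adjusted p under 0.05. NT5E lies near -2 in both comparisons of the lines, and the filled circles of IKZF2 (0.51) and ENTPD1 (1.97) belong to the untreated lines.

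Most genes of IFNγ signalling that were tested responded in both lines. Of 15 tested genes of its signalling list, 12 were higher with IFNγ in HT1376 CT and 10 in HT1376 FOXP3 KO, with median log2 fold changes of 2.42 and 2.22, and the other 3 and 5 were not called. Over all genes the shares called were 5.35% and 0.982% and the medians -0.02 and -0.01. CIITA, the activator of HLA class II genes, rose by 9.33 and 6.89 on the log2 scale. Under IFNγ, CIITA was at 76 CPM in HT1376 FOXP3 KO and 310 CPM in HT1376 CT (edgeR adjusted p = 6.2e-05). Of the 15 genes, 4 were higher and 7 lower in untreated HT1376 FOXP3 KO than in untreated HT1376 CT. With IFNγ in both lines, 2 were higher and 8 lower. The medians were -0.28 and -0.77, beside -0.02 and 0.02 over all genes, of which 32.1% and 28.9% were called.

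Defining markers of T cells were largely missing. Of 16 T-cell genes, 10 were at the floor in all 12 libraries, and CD2, CD8B and ZAP70 had no count. TRBC2, a constant segment of the T-cell receptor, was the exception and made up most of the summed level of this list, which was 45.7 to 85.6 CPM in untreated HT1376 CT and 1.52 to 4.38 CPM in untreated HT1376 FOXP3 KO. Its log2 fold change without treatment was -4.74 (SE 0.409, adjusted p = 8.4e-06). CD3E, a chain of the T-cell receptor complex, had 7 to 25 counts in each HT1376 CT library and at most 2 in each HT1376 FOXP3 KO library. The 10 epithelial markers summed to 4061 to 5317 CPM across the 12 libraries, with overlap between the lines. Single members differed between the untreated lines. Of the 10 tested, 2 were called higher and 3 lower in HT1376 FOXP3 KO. Of all genes tested there, 32.1% were called, 14.0% higher and 18.2% lower. EPCAM was at 85.1 CPM in HT1376 CT and 22.2 CPM in HT1376 FOXP3 KO, and KRT7 at 645 and 1231 CPM. The 6 fibroblast genes summed to 46.1 to 65.8 CPM in untreated HT1376 CT and 479 to 732 CPM in untreated HT1376 FOXP3 KO, and the 6 myeloid genes to 2.58 to 4.89 and 102 to 233 CPM, with CD68 and TYROBP at 0 and CSF1R at 153 CPM of the latter. COL1A2, DCN and LUM, at 361, 106 and 79.4 CPM, made up most of the fibroblast sum in untreated HT1376 FOXP3 KO. COL1A1 went the other way, called lower at 7.78 CPM against 28.8 CPM in untreated HT1376 CT, as was ITGAM of the myeloid list, at 0.467 against 1.46 CPM. The sums of the T-cell, fibroblast and myeloid lists differed without overlap between the untreated lines, as did NT5E, IKZF2 and ENTPD1, and their part in those results was not tested.

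A wider list of 34 genes associated with Treg was read in the same way. IL10 and GZMB, which encode a suppressive cytokine and a cytotoxic protease, had no count, and 8 of the 34 were at the floor in all 12 libraries. Of 23 tested without treatment, 8 were lower and none was higher in HT1376 FOXP3 KO, with a median log2 fold change of -0.71, or -0.55 once each gene with a group at the floor took its bound. The share called in either direction was near the 32.1% of all genes tested, whose median was -0.02. By direction, 14.0% of all genes were called higher and 18.2% lower. PRDM1 (Blimp-1), a transcriptional repressor of effector Treg, fell from 34.9 CPM to 1.64 CPM (log2 fold change -4.42, SE 0.236, adjusted p = 2.6e-07). TNFRSF1B, a receptor for TNF that Treg carry, fell from 8.34 CPM to 1.70 CPM (adjusted p = 0.000491). Both rose with IFNγ in HT1376 CT, PRDM1 to 89.1 CPM (adjusted p = 0.00810) and TNFRSF1B to 26.5 CPM (adjusted p = 4.2e-05). The log2 fold changes were 1.36 and 1.69. In HT1376 FOXP3 KO they were 1.58 (adjusted p = 0.071) and 1.37 (adjusted p = 0.368), without overlap and not called. Of the list, 3 of 24 tested were called higher with IFNγ in HT1376 CT and 0 of 19 in HT1376 FOXP3 KO. The shares called over all genes were 5.35% and 0.982%. Under IFNγ, 1 gene of the list was higher and 6 were lower in HT1376 FOXP3 KO, of 23 tested. Taken in either direction, this was again near the share of all genes called (28.9%), while 15.7% of all genes were called lower.

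The genes whose pattern over the 12 libraries was most like that of each detected gene were found among 16592 genes by Pearson correlation of log2 CPM, given as a description, since the libraries of a group share their clone and treatment. For NT5E they were IER5, ARHGEF28 and LAT2, with r from 0.990 to 0.993. For ENTPD1 they were ADAM17 (0.962), AL513477.1 (0.953) and BCL6 (0.946). For IKZF2 they were IPP (0.951), AL031282.2 (0.943) and ZNF37BP (0.942), and for IKZF4 AC083843.4 (0.934), AC091544.4 (0.904) and OCIAD1 (0.902).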

How the data were processed

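RNA was measured in 12 HT1376 libraries (rRNA-depleted, paired-end). The authors aligned reads with STAR 2.7.11a to GRCh38 with an Ensembl annotation, removed Mycoplasma sequences, counted reads per gene with htseq-count, and deposited these whole-number counts as they were. The strand setting and the treatment of reads matching several genes are not given in the sources used here. All 12 columns were used and grouped by the sample labels, in which untreated cells are abbreviated. Depth was 4490684 to 39270042 counts.

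Pairs of groups were tested in edgeR 4.0.16 (quasi-likelihood, TMM, R 4.3.3) on genes with at least 10 counts in total, with Benjamini-Hochberg adjustment over all of them and calls under 0.05. The interaction used all 12 libraries. DESeq2 1.42.0 and the other settings are given in the closing section. CPM used TMM factors over 12 libraries, RPKM the union of GENCODE 44 exons. That release shares the build of the authors' annotation. The model was tested on simulated counts. The 10 genes, the lists and the tests were chosen with earlier results of these data known. All 10 genes are described. Per list and comparison, the 3 called genes of largest change were eligible for naming, if the groups did not overlap and each had a library over 3 counts, plus ligands, receptor chains, paralogs and antisense partners of the 10. Neighbouring and marker genes were named after their values were seen.

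Libraries with the same replicate number deviated together within a line (r across genes of 0.139 to 0.152 in HT1376 CT and 0.180 to 0.267 in HT1376 FOXP3 KO) and less so between lines (0.0407 to 0.136). The numbers were therefore read as pairs for IFNγ within a line only. As an alternative setting, the replicate block was fitted in every comparison, also between the lines and in the interaction. The sources do not say what the numbers mark.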

Additional observations from a re-analysis of the deposited data

How the results depend on the processing

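The 20 log2 fold changes of NT5E, IKZF2, IKZF4 and ENTPD1 were refitted 319 times. In 287 refits direction and call stayed, in 16 a call was gained, in 1 (ENTPD1 between the untreated lines, without HT1376 CT replicate 13) it was lost, and in 15 the sign changed. Each change of sign belonged to a value near 0 that was not called, with 1 library left out. Over left-out libraries IKZF2 ranged from -0.0829 to 0.199 and IKZF4 from -0.119 to 0.101 with IFNγ in HT1376 CT, IKZF2 from -0.159 to 0.0534 with IFNγ in HT1376 FOXP3 KO, and NT5E from -0.179 to 0.0274 and IKZF2 from -0.192 to 0.0799 in the interaction. The levels of the 4 genes in the 4 groups moved by less than 1 SD in 32 of 32 cases with RLE size factors or library totals.

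With IFNγ in HT1376 CT, where edgeR called 0 of the 10 genes, 1 was called (NT5E) without a filter, with filterByExpr, with DESeq2, with the replicate block, with the block and bias-adjusted deviance, and without IFNγ replicate 13 (0 to 1 over left-out libraries). In HT1376 FOXP3 KO, 1 was called (NT5E) with the replicate block, alone or with the bias-adjusted deviance. Between the lines under IFNγ, 1 was called, and 2 (NT5E and IKZF2) with library totals alone, without a filter, with the replicate block, and without HT1376 CT replicate 12 (1 to 2 over left-out libraries). With all 12 libraries in 1 fit, or with the replicate block and the bias-adjusted deviance, 3 were called (IKZF4 as well). Between the untreated lines 3 were called, and 4 (LRRC32 as well) without a filter, with DESeq2, with all 12 libraries in 1 fit, with the block and bias-adjusted deviance, and without HT1376 FOXP3 KO replicate 11 (2 to 4 over left-out libraries). Between lines the replicate numbers are only shared numbers. The cause of these changes was not tested.

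Over all genes, 1307 were called with IFNγ in HT1376 CT, 2248 without a filter, 4530 with the replicate block, 4102 with the block and bias-adjusted deviance, 679 with an absolute log2 fold change over 1 as well, and 761 to 1201 with 1 library left out. Of the 1307, 66.0% were higher, and 50.7% of 1540 with library totals alone. In HT1376 FOXP3 KO 237 became 1334 with the replicate block and 1027 with the bias-adjusted deviance added. The fold threshold left 4944 of 8135 between the untreated lines and 4625 of 7046 under IFNγ. The interaction gave 31 genes, 294 without a filter, 151 with DESeq2, 336 with the replicate block, 230 with the bias-adjusted deviance added, and 15 to 33 with 1 library left out. The replicate block with the bias-adjusted deviance was added after the values were seen.

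For other genes, 26 called fold changes were followed through the alternatives. Of these, 2 lost the call under some alternative, IL15 and IL15RA with IFNγ in HT1376 FOXP3 KO. Other calls given above, such as those of FOXP4, COL1A1 and ITGAM, were not followed in this way. Depth limits FOXP3, TNFRSF4, TNFRSF18, IL2RA, CTLA4 and LRRC32, whose levels lie at or near what 3 counts allow, and ENTPD1, with 5 to 55 counts per library.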
